A study of Mus musculus with 24 samples.

Results

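Oxidative phosphorylation subunits encoded in the nucleus were followed through Ras and Myc transformation and loss of 1 Eif4e allele in mouse embryonic fibroblasts. The genes were chosen by symbol alone: Ndufa, Ndufb, Ndufc, Ndufs and Ndufv genes of complex I without the Ndufaf assembly factors, Sdha to Sdhd of complex II, Uqcr genes and Cyc1 of complex III, Cox4i and Cox5 to Cox8 genes of complex IV, and Atp5 genes of complex V. Of the 19661 genes with a probe set that carried 1 symbol, 74 met this rule, namely 34 of complex I, 4 of complex II, 8 of complex III, 16 of complex IV and 12 of complex V. The filter on low values kept 72 of them among 14830 genes. Cox7b2 and Cox8c, testis forms of complex IV subunits, did not pass it and were not tested. In total RNA their log2 values over the 12 cultures lay between 4.51 and 5.02 for Cox7b2 and between 6.47 and 6.92 for Cox8c.

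The respiratory chain sits in the inner mitochondrial membrane. Complexes I and II pass electrons from NADH and succinate to ubiquinone, complex III passes them to cytochrome c and complex IV to oxygen, and complex V uses the proton gradient built by complexes I, III and IV to make ATP. Most subunits are translated on cytosolic ribosomes and imported, and they assemble with a small set of subunits made inside the mitochondrion. Translation of many cytosolic mRNAs begins when the cap-binding protein eIF4E joins the eIF4F complex, and mRNAs of respiratory subunits are among those known to respond to growth signals at this step.

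Fibroblasts came from E13.5 embryos, 3 wild type (WT) and 3 with a single intact Eif4e allele (Eif4e+/-, called Het below), with no other allele named in the labels. Each embryo gave an early-passage untransformed culture and a matched culture transformed with Ras and Myc, all grown in medium with 10% serum and harvested in exponential growth. How Ras and Myc were introduced, and whether a transformed culture is a single clone, is not given in the sources used here. Each of the 12 cultures was measured on Affymetrix Mouse Gene arrays both as total cellular RNA and as RNA of heavy polysomes, the gradient fraction in which an mRNA carries many ribosomes. This gave 24 arrays in 8 groups of 3. Values are log2 intensities, and translational efficiency (TE) is the log2 polysomal value minus the log2 total value of the same culture. Embryos are separate animals, so the spread between them is biological as well as technical.

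Eif4e itself was lower in Het than in WT cells, at 8.80 ± 0.10 against 9.10 ± 0.10 (SD, n = 3) in total RNA of untransformed cells and 9.05 ± 0.19 against 9.62 ± 0.20 in transformed cells. Of 12 fibroblast markers, 11 lay above the 40th percentile of the array on all 6 total RNA arrays of untransformed cells and 10 in transformed cells. Lum was not among them in either state and Dcn was not in transformed cells. By the same rule 7 of 10 muscle, 4 of 6 epithelial and 2 of 6 adipocyte markers passed in each state. Of 6 markers each, 3 leukocyte, 1 endothelial and 2 neural markers passed in untransformed cells. In transformed cells these numbers were 2, 0 and 3. In total RNA 6 of 12 fibroblast markers fell with transformation, where 15.8% of all genes fell. Of the markers tested, 3 of 9 muscle, 2 of 4 endothelial, 2 of 5 leukocyte and 2 of 5 neural markers fell too. Rises numbered 0 in the fibroblast and muscle lists and 1 in each other list. The mean log2 level of the fibroblast list was 10.11 to 10.35 per untransformed culture and 8.59 to 10.16 per transformed culture. The mean level of 10 muscle markers was 7.68 to 7.91 and 7.35 to 7.54 in the same order, that of 6 brown and white adipocyte markers 6.60 to 6.77 and 6.65 to 7.22, that of 6 leukocyte markers 7.09 to 7.39 and 6.82 to 7.61, and that of 6 epithelial markers 7.49 to 7.74 and 7.38 to 8.43. Endothelial markers had mean levels of 6.61 to 6.95 and 6.30 to 6.60 and neural markers 7.41 to 7.60 and 7.20 to 7.58. The part of these cell type differences in the results on respiratory subunits was not tested, and in such bulk RNA fewer cells of a type and less RNA per cell cannot be told apart. Probe set values had an SD of 1.71 to 1.81 on each total RNA array and 1.15 to 1.44 on each polysomal array, with the smallest polysomal SDs in untransformed WT embryo 1 (1.15) and transformed WT embryo 3 (1.25).

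In total RNA, transformation moved subunit mRNAs by small amounts and mostly upward. Averaged over both genotypes, 17 of 72 rose and 0 fell, with limma, embryo as a block and a Benjamini-Hochberg adjusted p under 0.05 over all 14830 genes. By the same rule 15.0% of all genes rose and 15.8% fell. At an unadjusted p under 0.05, 26 subunits were higher and 1, Ndufa3, was lower. Of all 14830 genes, 6246 passed that level in either direction. The median change of the 72 genes was 0.09 on the log2 scale against 0.03 over all genes, and 60 of 72 changes were above 0 against 56.1% of all genes. With 1 embryo left out, 8 rises passed when it was WT 2, Het 1 or Het 3, 10 when it was Het 2, 12 when it was WT 3 and 13 when it was WT 1, with backgrounds of 8.74% to 15.1%. Quantile normalisation of the arrays gave 27 rises (background 16.6%).

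Among the 34 complex I genes, 7 rose in total RNA: Ndufa2, Ndufa12, Ndufa13, Ndufc2, Ndufs1, Ndufs6 and Ndufs7. Ndufs1 and Ndufs7 encode iron-sulfur proteins of the catalytic core, and the other 5 encode accessory subunits. For Ndufa2, the largest rise of this complex, untransformed values were 10.23, 10.00 and 9.95 in WT embryos 1 to 3 and 10.10, 9.97 and 10.08 in Het embryos 1 to 3. Transformed values were 10.48, 10.42 and 10.38 in WT and 10.45, 10.48 and 10.18 in Het cells. Every embryo gave a higher Ndufa2 value after transformation, and the states overlapped only through Het embryo 3. The change was 0.34 ± 0.07 (SE, adjusted p = 0.00982). Ndufa12 changed by 0.32 ± 0.09 (adjusted p = 0.0336) and Ndufc2 by 0.27 ± 0.05 (adjusted p = 0.00994). The Ndufc2 states did not overlap, with untransformed values of 11.13 to 11.20 and transformed values of 11.39 to 11.57. The Ndufa12 rise did not pass when WT 2, Het 1 or Het 3 was left out (adjusted p = 0.0565, 0.111 and 0.0952).

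The lowest changes of all subunits in total RNA were also in complex I, and none of them passed. Ndufa3, an accessory subunit of the membrane arm, changed by -0.22 ± 0.07 (adjusted p = 0.0615), with untransformed values of 10.18 to 10.41 and transformed values of 9.92 to 10.48. It was lower in 5 of 6 embryos, and WT embryo 3 was the exception. Without that embryo it passed the threshold as a fall of -0.30 (adjusted p = 0.00984). Ndufs5 changed by -0.17 ± 0.08 and Ndufb10 by -0.14 ± 0.07, both with an adjusted p = 0.162.

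No complex II gene was called in total RNA. Sdhd, a membrane anchor, had the smallest p of the 4, with a change of 0.11 ± 0.06 (adjusted p = 0.24), and its values of 9.48 to 9.65 before and 9.52 to 9.79 after transformation overlapped. Sdhb, the iron-sulfur subunit, was lower in all 6 embryos, but by -0.05 on average (adjusted p = 0.46).

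Complex III had the largest share of rises in total RNA, 5 of 8 genes, and a median change of 0.18 against 0.10 in complex I, 0.08 in complexes IV and V and 0.00 in complex II. Whether the complexes differed was not tested. Uqcr10 and Uqcr11 encode small subunits of the membrane part. Untransformed Uqcr11 values were 8.35, 8.48 and 8.47 in WT and 8.45, 8.45 and 8.48 in Het cells, and transformed values were 9.13, 8.98 and 8.90 in WT and 8.86, 8.66 and 8.40 in Het cells. All transformed WT cultures lay above all untransformed cultures, and Het embryo 3 was lower after transformation. The Uqcr11 change was 0.38 ± 0.08 (adjusted p = 0.0143). Uqcr10 changed by 0.34 ± 0.07 (adjusted p = 0.0115), Cyc1, the cytochrome c1 subunit, by 0.22 ± 0.05 (adjusted p = 0.0222), Uqcrfs1, the Rieske iron-sulfur protein, by 0.21 ± 0.06 (adjusted p = 0.0343) and Uqcrh, the hinge protein, by 0.16 ± 0.05 (adjusted p = 0.0397). The core proteins Uqcrc1 and Uqcrc2 changed by 0.00 and 0.01, and Uqcrq by -0.08 ± 0.11 (adjusted p = 0.613).

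Complex IV held the largest single change in total RNA. Cox6b2 is the testis form of the subunit whose general form is Cox6b1. Its values in untransformed cells were 7.87, 8.02 and 7.56 in WT and 7.85, 7.15 and 7.46 in Het embryos 1 to 3. After transformation they were 7.86, 8.86 and 9.16 in WT and 8.44, 8.78 and 9.04 in Het cells. WT embryo 1 did not move and its value stayed within the untransformed range, while the other 5 embryos were higher after transformation. The mean change was 1.03 ± 0.22 (SE, adjusted p = 0.0141), and without Het embryo 3 it was 0.96 (adjusted p = 0.058). Cox6b1 changed by 0.01 ± 0.05 (adjusted p = 0.908), with values between 12.19 and 12.33 after transformation.

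The other paired isoforms of complex IV gave no such rise in the tissue-restricted member. Of these members, Cox4i2 and Cox6a2 lay above the 40th percentile of the array on all 12 total RNA arrays. Cox7a1 did so on 1 and Cox8b on 3 of 12, so their flat values say little. Cox4i1, the general form of subunit 4, changed by 0.23 ± 0.05 (adjusted p = 0.016), with 11.57 to 11.69 before and 11.76 to 11.94 after transformation. Cox4i2, the lung and hypoxia form, changed by -0.02 ± 0.05 (adjusted p = 0.831). Cox7a2, the general form of subunit 7a, changed by 0.26 ± 0.06 (adjusted p = 0.0153) and Cox7a1, the heart and muscle form, by 0.01 ± 0.05 (adjusted p = 0.885). The Cox7a2 rise did not pass when WT 1, Het 1 or Het 3 was left out (adjusted p = 0.0531, 0.0592 and 0.0608). Neither Cox6a1 (-0.02 ± 0.05) nor its muscle form Cox6a2 (0.03 ± 0.06) was called, and neither Cox8a (0.02 ± 0.06) nor its muscle form Cox8b (0.08 ± 0.06). Cox7b changed by 0.21 ± 0.05 (adjusted p = 0.0288). In this complex 4 of 14 genes rose, and in complex V 1 of 12, Atp5k, which encodes subunit e of the membrane part (0.25 ± 0.05, adjusted p = 0.00919). All 12 complex V changes were above 0, between 0.02 and 0.25. Atp5g3, a gene of the proton-carrying c subunit, changed by 0.13 ± 0.05 (adjusted p = 0.0702), higher in 6 of 6 embryos and without overlap of the states.

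In polysomal RNA the same genes moved further. Averaged over both genotypes, 20 of 72 rose and 0 fell, where 3.67% of all genes rose and 4.05% fell. At an unadjusted p under 0.05, 43 subunits were higher and 0 were lower, where 3221 of all 14830 genes passed in either direction. The median change was 0.50 against 0.01 over all genes, and 67 of 72 changes were above 0 against 51.7% of all genes. For 63 of 72 genes the polysomal change was larger than the total RNA change, which held for 51.4% of all genes. Of the 20 genes that rose in polysomal RNA, 11 had also risen in total RNA, which is 55% of the 20 and 64.7% of the 17. For 12 genes the 6 transformed cultures all lay above the 6 untransformed cultures, and for 0 all below, where 2.84% of all genes separated upward and 2.89% downward.

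**Figure D1:**
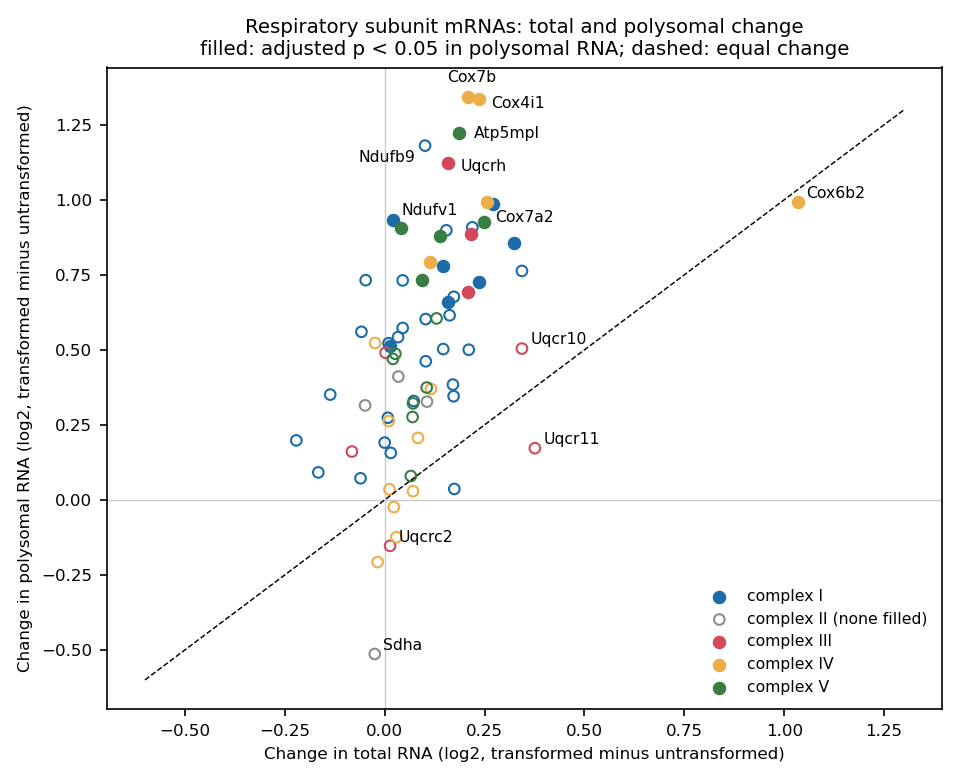
Change with transformation in total RNA (x axis, log2) and in polysomal RNA (y axis, log2) of the 72 subunit genes, 1 point per gene, coloured by complex and filled where the polysomal change passed an adjusted p of 0.05. Most points lie above the dashed line of equal change, Cox6b2 lies on both axes near 1, and Sdha has the lowest polysomal change at -0.51.

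The number of polysomal rises depended on each embryo. Left out in turn, WT 1, 2 and 3 gave 7, 12 and 34 rises, and Het 1, 2 and 3 gave 9, 5 and 1. The backgrounds of these 6 counts were 1.61%, 1.79%, 12.1%, 1.26%, 1.14% and 0.526% in that order. Without the 2 polysomal arrays of smallest SD it was 11, with a background of 5.79%. Those arrays belong to WT embryos 1 and 3, so with embryo as a block WT embryo 2 was the only WT pair left. Its own median change, 0.29, was the smallest of the 6 embryos. The median change in the averaged fit moved less, between 0.39 and 0.60 when an embryo was left out. Of the 20 rises, Atp5mpl passed under each of 16 alternatives, Cox7b and Uqcrh missed the threshold under 1, without Het embryo 3, and the other genes under 2 to 11.

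Within single embryos the median polysomal change of the 72 genes was 0.95, 0.29 and 0.43 in WT embryos 1 to 3 and 0.35, 0.54 and 0.58 in Het embryos 1 to 3. It was above the median of all genes in each embryo, which lay between -0.05 and 0.12. From the untransformed to the transformed culture, the SD of the polysomal array went from 1.15 to 1.39 in WT embryo 1, from 1.31 to 1.42 in WT embryo 2 and from 1.44 to 1.25 in WT embryo 3. In Het embryos 1 to 3 it went from 1.41 to 1.40, from 1.34 to 1.28 and from 1.28 to 1.37. The part of this SD in the result was not tested. In total RNA the medians per embryo were 0.05, 0.19 and 0.12 in WT and 0.09, 0.14 and -0.01 in Het cells.

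**Figure D2:**
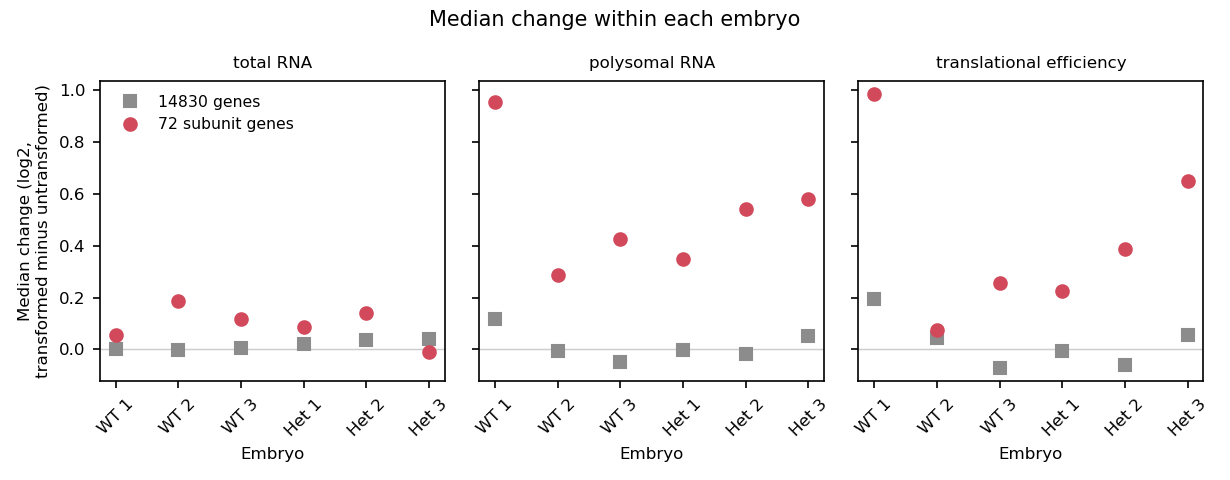
Median change with transformation (y axis, log2) in each of the 6 embryos (x axis), for the 72 subunit genes (circles) and the 14830 genes tested (squares), in total RNA, polysomal RNA and translational efficiency. In polysomal RNA the circles lie between 0.29 and 0.95 and the squares between -0.05 and 0.12.

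Every complex I gene had a polysomal change above 0, with a median of 0.55, and 7 of 34 rose: Ndufa4, Ndufa12, Ndufc1, Ndufc2, Ndufs4, Ndufs7 and Ndufv1. Ndufv1 encodes the core flavoprotein that takes electrons from NADH (probe set 10464572). Its polysomal values were 5.18, 5.28 and 5.73 in untransformed WT and 6.27, 5.42 and 5.32 in untransformed Het cells. After transformation they were 6.22, 6.11 and 6.43 in WT and 6.64, 6.50 and 6.91 in Het cells. All 6 embryos were higher after transformation, and the states overlapped because untransformed Het embryo 1 was high. The change was 0.93 ± 0.17 (adjusted p = 0.0174), beside 0.02 ± 0.06 in total RNA (adjusted p = 0.816).

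Ndufc1, an accessory subunit, had the smallest of these rises, 0.51 ± 0.13 (adjusted p = 0.0469), and missed the threshold under 11 of 16 alternatives. With the mean of its probe sets in place of the brightest, its change was 0.28 (adjusted p = 0.206). Ndufc2 rose by 0.98 ± 0.16 in polysomal RNA (adjusted p = 0.0121), and its states did not overlap. Ndufs4, an accessory subunit close to the NADH-oxidising module, rose by 0.78 ± 0.19 (adjusted p = 0.0441). Ndufs7, a core iron-sulfur protein, rose by 0.73 ± 0.15 (adjusted p = 0.026). Ndufa4 carries a complex I symbol, although its product is now assigned to complex IV, and it rose by 0.66 ± 0.15 (adjusted p = 0.0334). Its paralog Ndufa4l2 changed by 0.16 (adjusted p = 0.632). Ndufb9 had the largest polysomal change of the complex at 1.18 ± 0.29 but just missed the threshold (adjusted p = 0.0501), as did Ndufs6 at 0.91 (adjusted p = 0.0501). Embryos disagreed for Ndufb9, with a change of 2.16 in WT embryo 1 and -0.08 in WT embryo 2. Ndufs1, which had risen in total RNA, changed by 0.04 in polysomal RNA (adjusted p = 0.978), with embryo values from -1.59 to 1.36.

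Complex II had no polysomal rise among its 4 genes. Sdha, the flavoprotein that oxidises succinate, had the lowest change of all 72 genes. Its polysomal values were 4.89, 5.40 and 6.33 in untransformed WT and 6.25, 6.23 and 5.97 in untransformed Het cells, against 5.15, 5.84 and 5.01 and 5.43, 5.49 and 5.08 after transformation. WT embryos 1 and 2 were higher and the other 4 embryos lower, and the change of -0.51 ± 0.23 was not called (adjusted p = 0.242). Sdhb changed by 0.31, Sdhc by 0.41 and Sdhd by 0.33, with adjusted p-values of 0.218, 0.217 and 0.304. Sdhb was higher in 6 of 6 embryos in this fraction, the opposite of its sign in total RNA.

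In complex III, 3 of 8 genes rose in polysomal RNA: Uqcrh, Cyc1 and Uqcrfs1. Uqcrh, the acidic hinge protein that helps cytochrome c1 meet cytochrome c, was read by probe set 10515253. Its untransformed polysomal values were 9.25, 9.81 and 9.47 in WT and 10.07, 9.36 and 9.40 in Het cells, and its transformed values were 10.91, 10.47 and 10.71 in WT and 10.75, 10.37 and 10.89 in Het cells. The lowest transformed culture lay above the highest untransformed culture. The change was 1.12 ± 0.17 (adjusted p = 0.00923), beside 0.16 in total RNA. Cyc1 rose by 0.88 ± 0.16 (adjusted p = 0.016) and Uqcrfs1 by 0.69 ± 0.17 (adjusted p = 0.046). Uqcr10 (0.50 ± 0.17, adjusted p = 0.115) and Uqcr11 (0.17 ± 0.14, adjusted p = 0.558), which had the largest complex III rises in total RNA, were not called in polysomal RNA. Uqcrc1 changed by 0.49 (adjusted p = 0.0736) and Uqcrc2 by -0.15 (adjusted p = 0.782).

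In complex IV, 5 of 14 genes rose in polysomal RNA: Cox4i1, Cox6b2, Cox6c, Cox7a2 and Cox7b. Cox7b encodes a small structural subunit (probe set 10601356). Its polysomal values were 6.70, 7.22 and 7.65 in untransformed WT and 7.37, 6.93 and 7.45 in untransformed Het cells, and 8.67, 8.57 and 8.17 and 8.38, 8.66 and 8.94 after transformation. The states did not overlap, and the change of 1.34 ± 0.20 (adjusted p = 0.0083) was the largest of the 72 genes. Cox4i1 changed by nearly the same amount, 1.34 ± 0.27 (adjusted p = 0.0237), but unevenly. Its embryo changes ran from 0.45 in WT embryo 2 to 2.38 in WT embryo 1, and its states overlapped. Without the 2 polysomal arrays of smallest SD, which left WT embryo 2 as the only WT pair, its change was 0.88 and did not pass. Cox7a2 rose by 0.99 ± 0.17 (adjusted p = 0.0146) and Cox6c by 0.79 ± 0.15 (adjusted p = 0.0174), both without overlap. Cox6b2 rose by 0.99 ± 0.20 in polysomal RNA (adjusted p = 0.0238), close to its 1.03 in total RNA, and WT embryo 1 again gave almost no change at 0.01. The muscle or hypoxia forms Cox4i2 (-0.21), Cox6a2 (-0.12), Cox7a1 (0.04) and Cox8b (0.21) were not called. Their polysomal values, between 2.69 and 4.47, lay around or below the mean polysomal array level of 3.78 to 3.79. Untransformed Cox6b2, at 3.50 to 4.02, did so too. Cox8a (-0.02) was not called, and neither was Cox7a2l (0.03), whose product takes part in supercomplex assembly. The median of the complex was 0.32.

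Complex V had 5 polysomal rises among 12 genes and a median change of 0.55, with all 12 changes above 0. Those that rose were Atp5mpl, Atp5k, Atp5d, Atp5j2 and Atp5j. Atp5mpl encodes a small proteolipid bound to the membrane part (probe set 10402752). Its polysomal values were 9.14, 10.17 and 9.75 in untransformed WT and 10.11, 9.16 and 9.89 in untransformed Het cells, and 10.85, 10.96 and 10.89 and 10.81, 10.73 and 11.30 after transformation. The states did not overlap. The change was 1.22 ± 0.17 (adjusted p = 0.00716), the smallest adjusted p of all subunits in this fraction. Atp5d, the delta subunit of the rotor stalk (probe set 10364696), had 6.29, 6.85 and 6.34 in untransformed WT and 7.23, 5.97 and 6.38 in untransformed Het cells, against 7.07, 7.34 and 7.57 and 7.67, 7.42 and 7.43 after transformation. It was higher in 6 of 6 embryos by 0.91 ± 0.17 (adjusted p = 0.0185), beside 0.04 ± 0.10 in total RNA. Atp5k (0.92 ± 0.22, adjusted p = 0.0435), Atp5j2 (0.88 ± 0.16, adjusted p = 0.0181) and Atp5j (0.73 ± 0.15, adjusted p = 0.0277) belong to the membrane part and the peripheral stalk. Without the 2 polysomal arrays of smallest SD, WT embryo 2 was the only WT pair left. These 3 changes were then 0.51, 0.73 and 0.64, that of Atp5d was 0.74, and they did not pass. Atp5k also did not pass with no pairing by embryo (adjusted p = 0.0611). The catalytic subunits Atp5a1 and Atp5b changed by 0.37 and 0.47 (adjusted p = 0.17 and 0.103), and the stalk subunit Atp5o by 0.08 (adjusted p = 0.852).

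**Figure D3:**
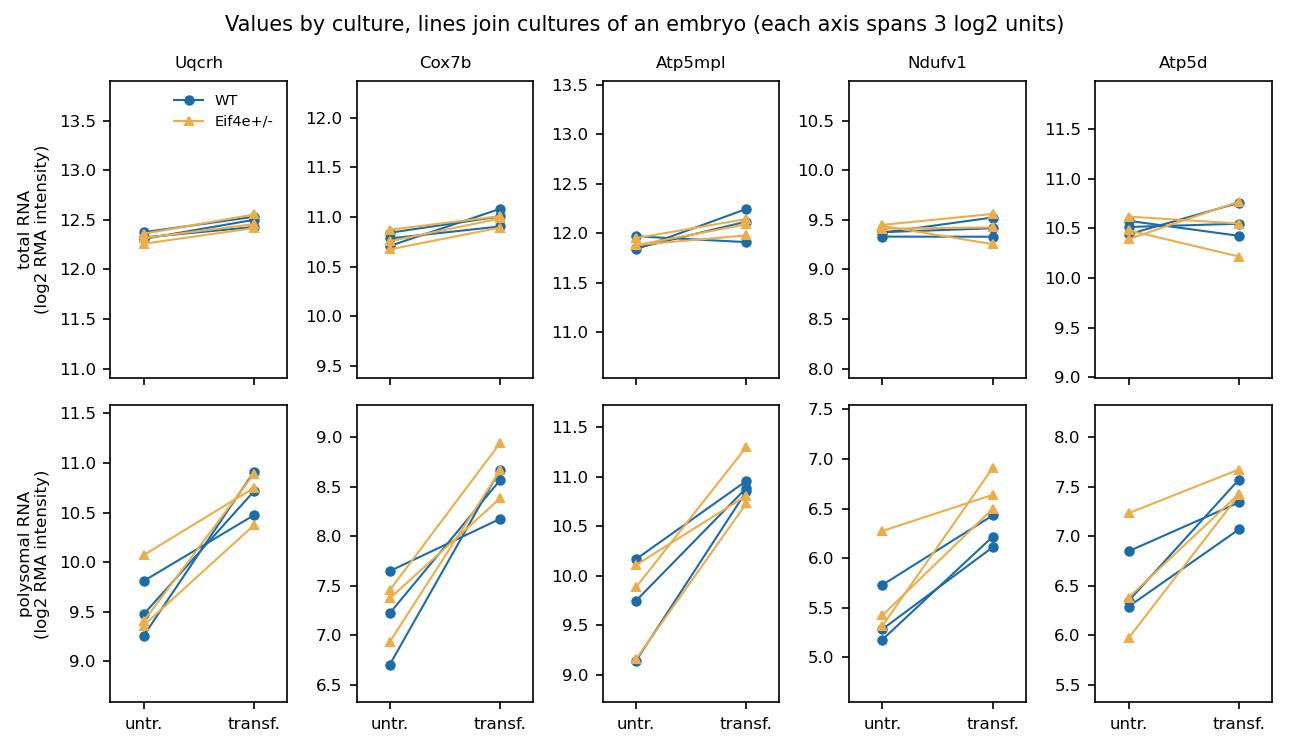
Log2 intensity of Uqcrh, Cox7b, Atp5mpl, Ndufv1 and Atp5d in total RNA (upper panels) and polysomal RNA (lower panels) of untransformed (untr.) and transformed (transf.) cultures, with a line for each embryo, WT as circles and Eif4e+/- as triangles. All axes span the same log2 range, and all 6 lines rise in each lower panel, for Uqcrh from 9.25 to 10.07 before to 10.37 to 10.91 after transformation.

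By complex, polysomal medians were 0.55 in complexes I and V, 0.50 in complex III and 0.32 in complexes II and IV. The 14 genes of complex IV were the most spread, from -0.21 to 1.34. The lower ones included the tissue-restricted isoforms Cox4i2, Cox6a2, Cox7a1 and Cox8b, with values around or below the mean polysomal array level. Cox8a, Cox7a2l and Cox6b1 were among the lower ones too. Their polysomal values, 7.51 to 8.40, 4.66 to 5.96 and 10.09 to 10.79, lay above that level. A difference between complexes was not tested, since the genes of a complex are not replicates.

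**Figure D4:**
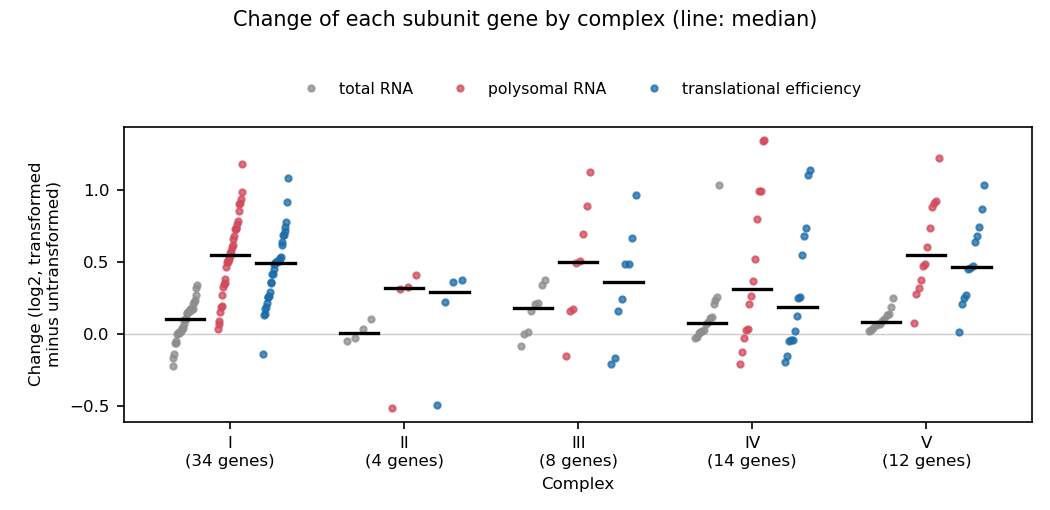
Change with transformation (y axis, log2) of each kept subunit gene by complex (x axis, 34, 4, 8, 14 and 12 genes) in total RNA, polysomal RNA and translational efficiency, with a line at each median. The polysomal medians lie at 0.55, 0.32, 0.50, 0.32 and 0.55 from complex I to V, above the total RNA medians of 0.10, 0.00, 0.18, 0.08 and 0.08.

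Upstream flanks are shown for some of the subunit genes that rose in polysomal RNA, to set their promoter letters beside the changes. RefSeq promoters (build GRCm38.p6, 250 bases before to 50 after a gene's start) matched 59 of the 74 genes by gene identifier. They were searched on both strands for GCATGCG (the core bound by NRF1, a regulator of respiratory genes), CCGGAAG (the ETS core bound by GABP), GATGGCG (a YY1 core), CACGTG (an E-box, to which MYC can bind) and CCAAT, motifs that do not contain one another. Each window below is read 5′ to 3′ on the gene's own strand and holds the 60 bases that end just before the start, or 17 bases before it for Atp5k, with motif letters in capitals. Uqcrh, Cox7b, Ndufv1 and Atp5d were taken because their TE also rose. Atp5k was taken only because it held an NRF1, ETS or YY1 core before its start, and its window is centred on that core. Its match is therefore no result. The other matched genes that rose in polysomal RNA are not shown. Uqcrh (chr4:116075071-116075130, minus strand) has a CCAAT and the reverse complement of the ETS core, and Atp5k (chr5:108434416-108434475, minus strand) has the NRF1 core on both strands, overlapping. Cox7b (chrX:106015640-106015699, plus strand), Ndufv1 (chr19:4012756-4012815, minus strand) and Atp5d (chr10:80142215-80142274, plus strand, the first of the 2 starts listed for it among these promoters, inside the RefSeq gene span that begins at 80138698) have none of these motifs in the window shown.
Uqcrh: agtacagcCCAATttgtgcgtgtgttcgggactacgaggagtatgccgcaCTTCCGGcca
Atp5k: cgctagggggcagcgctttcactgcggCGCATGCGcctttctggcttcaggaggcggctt
Cox7b: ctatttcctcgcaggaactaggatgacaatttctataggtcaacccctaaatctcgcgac
Ndufv1: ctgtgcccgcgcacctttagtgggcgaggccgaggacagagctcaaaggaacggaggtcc
Atp5d: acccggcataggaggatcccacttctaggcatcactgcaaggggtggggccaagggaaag

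A gene was counted once if the full 300 bases at any of its listed starts held the motif. The NRF1 core was in 9 of 59 genes (15.3%), against 4.01% of the 27025 genes with a listed promoter. The ETS core was in 13 (22.0% against 9.93%) and the YY1 core in 10 (16.9% against 4.04%). The E-box was in 4 (6.78% against 8.09%) and CCAAT in 25 (42.4% against 41.1%). At least 1 of the NRF1, ETS and YY1 cores was in 25 of 59, against 16.2% of all genes. Among the 16 matched genes that rose in polysomal RNA, 2 held the NRF1 core, 3 the ETS core, 5 the YY1 core, 1 the E-box and 5 CCAAT. Outside the windows above, the promoter of Ndufv1 held an E-box and that of Cox7b a CCAAT. Atp5j, subunit F6 of the peripheral stalk, had the NRF1, ETS and YY1 cores, not necessarily at the same start. These are matches of letters and no measure of binding.

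TE rose with transformation for 5 of 72 genes and fell for 0, where 1.81% of all genes rose and 0.971% fell. At an unadjusted p under 0.05, 35 subunits were higher and 0 were lower, where 2459 of all 14830 genes passed in either direction. The median TE change was 0.45 against 0.01 over all genes, and 63 of 72 were above 0 against 51.4% of all genes. The 5 genes came from complexes I, III, IV and V, and all 5 had also risen in polysomal RNA, which shares its arrays with TE. They were Cox7b (1.14 ± 0.21, adjusted p = 0.0242), Atp5mpl (1.03 ± 0.21, adjusted p = 0.0343), Uqcrh (0.97 ± 0.17, adjusted p = 0.0227), Ndufv1 (0.91 ± 0.19, adjusted p = 0.0401) and Atp5d (0.86 ± 0.18, adjusted p = 0.0401). Only Cox7b and Uqcrh had risen in total RNA too. The count was 0, 2 and 23 when WT 1, 2 and 3 were left out in turn and 1, 0 and 0 when Het 1, 2 and 3 were. The share of all genes whose TE rose moved too, to 0.897%, 0.877% and 7.70% and to 0.836%, 0.519% and 0.506% in the same order. The count was 1, Cox7b, without the 2 polysomal arrays of smallest SD (background 2.39%), 9 with no pairing by embryo (3.16%) and 14 with array weights (5.98%). Each of the 5 rises missed the threshold under 5 or 6 of 16 alternatives. Without those 2 arrays, which left WT embryo 2 as the only WT pair, the Atp5d change was 0.57 and did not pass.

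The TE values by culture show where these 5 changes came from. Cox7b stood at -4.08, -3.49 and -3.19 in untransformed WT and -3.38, -3.94 and -3.22 in untransformed Het cells, and at -2.23, -2.52 and -2.83 and -2.60, -2.35 and -1.95 after transformation. Uqcrh stood at -3.12, -2.51 and -2.84 and -2.25, -3.00 and -2.86 before, and at -1.62, -1.96 and -1.79 and -1.71, -2.18 and -1.53 after. Atp5mpl stood at -2.82, -1.67 and -2.10 and -1.84, -2.72 and -1.99 before, and at -1.06, -1.29 and -1.23 and -1.33, -1.36 and -0.68 after. In Cox7b, Uqcrh and Atp5mpl the states did not overlap. Total and polysomal arrays have their own common levels, so these negative values carry no absolute meaning and only their differences between cultures do. Ndufv1 and Atp5d overlapped between states, Ndufv1 through untransformed Het embryo 1 (-3.14) and Atp5d through untransformed Het embryo 1 (-3.39). Median TE changes by embryo were 0.98, 0.08 and 0.26 in WT and 0.22, 0.39 and 0.65 in Het cells. In WT embryo 2 the median of all genes was 0.04, close to that of the subunits.

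Ndufb9 (1.08, adjusted p = 0.106) and Cox4i1 (1.10 ± 0.26, adjusted p = 0.0675) had TE changes as large as those that passed, with wider spread between embryos. Cox6b2 differed from them, with a TE change of -0.04 ± 0.20 (adjusted p = 0.948), since its polysomal value moved as far as its total value. Sdha (-0.49), Uqcr11 (-0.20), Cox4i2 (-0.19), Uqcrc2 (-0.17) and Cox6a2 (-0.15) had the lowest TE changes, and none was called. By complex the TE medians were 0.50 in complex I, 0.29 in complex II, 0.36 in complex III, 0.19 in complex IV and 0.47 in complex V.

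The order of all 14830 genes by TE sets different probe sets against each other, and probe sets differ in how they respond, so a gene's place in it is not a measure of how well its mRNA is translated. What can be followed is how that place shifted between states. The median subunit went from percentile 64.4 in untransformed cells, with cultures between 50.8 and 89.1, to percentile 87.3 in transformed cells, with cultures between 80.5 and 93.5. With no filter on low values it went from 52.3 to 76.7. Cox7b went from percentile 68.0 to 97.8, Ndufv1 from 48.8 to 92.5, Atp5d from 42.2 to 88.0, Cox4i1 from 27.1 to 79.2 and Uqcrh from 96.6 to 99.4.

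Genes that build or feed the complexes had more calls in total than in polysomal RNA, as did all genes, of which 15.0% rose and 15.8% fell in total RNA and 3.67% rose and 4.05% fell in polysomal RNA. Of 41 assembly factors, which insert cofactors and join subunits, 13 rose and 1 fell in total RNA, and 2 rose in polysomal RNA, the latter near the share of all genes. The largest total RNA rises were Sdhaf4 (0.46 ± 0.08, adjusted p = 0.00502), Uqcc1 (0.42 ± 0.05, adjusted p = 0.00188) and Nubpl (0.40 ± 0.05, adjusted p = 0.00152), factors for complexes II, III and I. Ttc19, a complex III factor, fell by 0.27 on the log2 scale (adjusted p = 0.0222). Cox17, the copper chaperone of complex IV, rose by 1.41 ± 0.33 in polysomal RNA (adjusted p = 0.0422) and Cox15, which makes haem a, by 0.88 ± 0.21 (adjusted p = 0.0457). The list's median changes were 0.09 in total RNA, 0.27 in polysomal RNA and 0.12 in TE.

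Of 21 regulators of mitochondrial biogenesis, 9 rose and 0 fell in total RNA and 1, Tfam, rose in polysomal RNA, again near the share of all genes in that fraction. The largest rises in total RNA were Twnk, the mitochondrial DNA helicase (0.68 ± 0.10, adjusted p = 0.00293), Tfam, which packages and transcribes mitochondrial DNA (0.66 ± 0.12, adjusted p = 0.00651), and Ssbp1, its single-strand binding protein (0.57 ± 0.11, adjusted p = 0.00856). Tfam rose by 1.35 ± 0.33 in polysomal RNA (adjusted p = 0.0473). The factors whose motifs were searched were not called in total RNA, with changes of 0.03 for Nrf1 (adjusted p = 0.829), 0.17 for Gabpa (adjusted p = 0.0889) and 0.15 for Yy1 (adjusted p = 0.074).

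Among 17 citric acid cycle genes 5 rose and 1 fell in total RNA, where 15.0% of all genes rose and 15.8% fell. In polysomal RNA 1, Idh2 (0.56 ± 0.12, adjusted p = 0.0309), rose. Pdhb (0.37 ± 0.08, adjusted p = 0.0144), Idh3g (0.30 ± 0.06, adjusted p = 0.013) and Suclg1 (0.27 ± 0.08, adjusted p = 0.0384) rose most in total RNA, and Pdha1, the partner of Pdhb in pyruvate dehydrogenase, fell by 0.33 on the log2 scale (adjusted p = 0.0471). Among 22 genes of electron carriers, ubiquinone synthesis and adenine nucleotide transport, 5 rose and 2 fell in total RNA, and 1 rose and 1 fell in polysomal RNA. Coq7, a hydroxylase of ubiquinone synthesis, rose in both (0.33 and 0.66, adjusted p = 0.00556 and 0.0442). Coq10b, a ubiquinone-binding protein, fell in both (by 0.75 and 0.64 on the log2 scale, adjusted p = 0.00112 and 0.0188). The polysomal counts of both lists, too, are near the shares of all genes. None of the 4 lists had a TE call. Their polysomal medians, 0.27, 0.11, 0.18 and 0.22 in the order above, lay between that of all genes, 0.01, and that of the subunits, 0.50.

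Within each genotype alone fewer changes passed. In WT cells 6 subunits rose in total RNA (background 7.62%) and in Het cells 2, Cox6b2 and Ndufc2 (background 5.68%), and 0 fell in either (backgrounds 9.08% and 8.58%). With no pairing by embryo these rises numbered 10 and 6, counts given here without the share of all genes. The WT count was 0 to 4 and the Het count 0 or 1 when an embryo was left out. In polysomal RNA 0 subunits were called in either genotype by limma. Of all genes 0.378% rose and 0.904% fell in WT and 0.479% rose and 1.31% fell in Het cells. At an unadjusted p under 0.05, 33 and 29 subunits were higher and 1 was lower in each genotype. In either direction 2046 and 2213 of all 14830 genes passed that level. In TE 0 were called, where 0.506% and 0.202% of genes rose and 0.196% and 0.0944% fell. At an unadjusted p under 0.05, 23 and 20 subunits were higher and 1 was lower in each genotype. In either direction 1487 and 1524 of all genes passed that level. Without WT embryo 3 the polysomal rises were 16 in WT and 13 in Het cells (backgrounds 8.72% and 3.74%), and the TE rises 7 and 4 (4.81% and 2.14%). With only the Het cultures in the fit, 19 subunits rose and 1 fell in polysomal RNA (backgrounds 4.44% and 5.33%) and 9 rose and 1 fell in TE (2.83% and 1.81%), whereas with only the WT cultures 0 were called in either by limma (0.0135% and 0.0607% of genes in polysomal RNA and 0% in TE). Median polysomal changes were 0.57 in WT and 0.49 in Het cells.

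The difference between the genotypes in their response to transformation was not called for any subunit or any other gene. At an unadjusted p under 0.05 it was positive for 1 and negative for 1 subunit in polysomal RNA, where 314 genes passed at that level in all, likewise 1 and 1 in TE of 289 genes, and 0 in total RNA of 723 genes. Complex II had the most uneven medians. Its polysomal change was 0.52 in WT and 0.08 in Het cells, all 4 differences were negative with a median of -0.55, and 0 of 4 were called.

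Genotype itself left subunit mRNAs without a call. In untransformed cells 0 of 72 differed between Het and WT in total RNA, polysomal RNA or TE, where 0% of genes were called by limma in each. At an unadjusted p under 0.05 the subunits numbered 0 in total RNA of 352 genes, 2 in polysomal RNA of 247 genes and 2 in TE of 215 genes. Sdhd had the smallest p on the higher side in polysomal RNA (0.54 ± 0.24) and TE (0.53 ± 0.23), and Cox4i2 on the lower side in both (-0.43 ± 0.19 and -0.49 ± 0.20), all with an adjusted p = 1.00. In total RNA these were Ndufb8 (0.12 ± 0.09) and Ndufa13 (-0.09 ± 0.07). The median difference of the subunits was 0.00 in total RNA and 0.04 in polysomal RNA.

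In transformed cells, 52 of 72 subunits were lower in Het than in WT total RNA, where 46% of all genes were lower, but the median difference was -0.04 against 0.01 over all genes and 0 subunits were called. Over all genes 0.0405% were called lower and 0.00674% higher, and 3 subunits were lower at an unadjusted p under 0.05, of 1379 genes in either direction. Uqcr11 had the smallest p, at 9.00 ± 0.12 in WT and 8.64 ± 0.23 in Het cells (SD, n = 3), a difference of -0.36 ± 0.11 (SE, adjusted p = 0.352). Its WT values of 9.13, 8.98 and 8.90 all lay above its Het values of 8.86, 8.66 and 8.40. Uqcr10 was next to it, at 10.58 ± 0.15 and 10.24 ± 0.23, a difference of -0.34 ± 0.12 (adjusted p = 0.428), and its groups also did not overlap, with 10.50, 10.49 and 10.76 in WT and 10.45, 10.28 and 9.99 in Het cells. In untransformed cells the genotypes differed by 0.02 for Uqcr11 and -0.06 for Uqcr10. On the higher side Sdhb had the smallest p (0.14 ± 0.06, adjusted p = 0.543).

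The polysomal values of these complex III genes went separate ways. Uqcr11 stood at 3.61 ± 0.33 in transformed WT and 4.31 ± 0.37 in transformed Het cells, a difference of 0.71 ± 0.22 (adjusted p = 1.00), close to the mean polysomal array level of 3.78 to 3.79. Its TE difference of 1.07 ± 0.23 was the largest of the subunits in this comparison (unadjusted p = 0.000384 and adjusted p = 1.00 by limma). Uqcr10 was lower in Het polysomal RNA, at 5.23 ± 0.45 against 5.79 ± 0.19, a difference of -0.56 ± 0.29 (adjusted p = 1.00). Its TE difference was -0.22 ± 0.31. On the lower side of TE the smallest p belonged to Atp5a1 (-0.38 ± 0.24, adjusted p = 1.00). In polysomal RNA and TE of transformed cells 0% of genes were called, and 1 subunit, Uqcr11, was under an unadjusted p of 0.05 in each, of 478 and 430 genes.

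**Figure D5:**
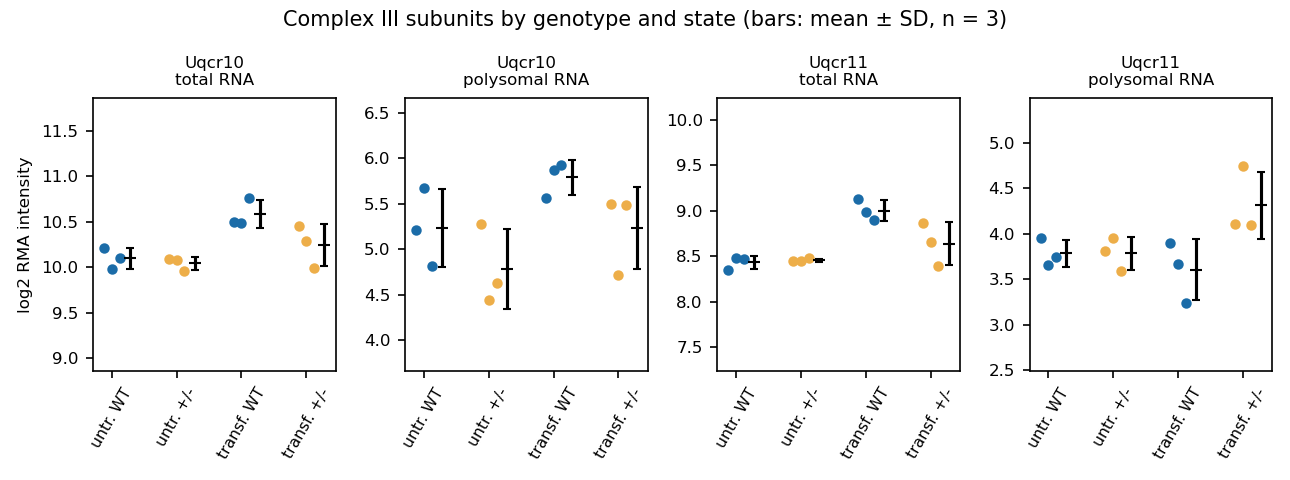
Log2 intensity of Uqcr10 and Uqcr11 in total and polysomal RNA (y axes) in untransformed (untr.) and transformed (transf.) cultures of WT and Eif4e+/- (+/-) embryos, 1 point per culture, with the mean and SD of 3 beside them. In transformed cells the WT total RNA means of 10.58 and 9.00 lie above the Eif4e+/- means of 10.24 and 8.64, while polysomal Uqcr11 is 3.61 in WT and 4.31 in Eif4e+/- cells.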

How the data were processed

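The deposited values were log2 RMA intensities that the authors computed, per the submitters' processing notes and the series description. Which RMA version and chip definition were used is not given in the sources used here, and neither is any filter on probe sets. Polysomal extracts came from cells treated with cycloheximide at 100 µg/ml and separated on a 10 to 50% sucrose gradient, per the labels' protocols. Arrays have no read depth, and 3 embryos per genotype limit the precision. Total RNA arrays had means of 7.46 to 7.50, whereas polysomal arrays had means of 3.78 to 3.79. Whether the fractions were normalised together is not given in the sources used here. Levels were not compared between fractions or between the probe sets of subunits, apart from the order of genes by TE. Some values were set against a percentile or the mean of the array, and marker lists were given as mean levels.

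Of 25668 probe sets, 20777 carried 1 symbol in the platform annotation, 232 several and 4659 none, and only the first were used, with the brightest probe set per gene. Genes above the 40th percentile of the array on at least 3 of 24 arrays were kept. Differences were fitted with limma 3.58.1 in R 4.3.3 (lmFit and eBayes), with Benjamini-Hochberg adjustment over all genes kept and calls at an adjusted p under 0.05. Transformation and the difference in response between genotypes had embryo as a block (4 residual degrees of freedom), and genotype was fitted on the 4 group means (8). The labels pair both states by embryo number. WT titles also carry biological replicates 1 to 3, whereas all Het titles carry replicate 1 beside embryo numbers 1 to 3. The embryo number was used. Deviations from the group means of an embryo's 2 cultures correlated at -0.06 to 0.22 in total RNA, -0.44 to 0.06 in polysomal RNA and -0.41 to 0.10 in TE. The script was tested on simulated data.

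The members, the gene lists and the rule for genes given with full values were chosen with earlier results of these data known. That rule took the called genes, the largest changes in total RNA, the highest and lowest TE ranks (not given in the text, since they set different probe sets against each other), isoform pairs, Uqcr10 and Uqcr11, and the smallest p in each genotype comparison. Other scalings, filters, variance settings, pairings and sample sets were tried as alternatives.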

Additional observations from a re-analysis of the deposited data

How the results depend on the processing

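All values here count subunits called with transformation unless said otherwise, and the cause of each change was not tested. The median changes of the 72 genes stayed above 0 under each alternative, at 0.07 to 0.13 in total RNA, 0.39 to 0.60 in polysomal RNA and 0.27 to 0.51 in TE, while counts of calls moved widely. The share of all genes called moved with the setting too. A count with no such share beside it is not a result about the subunits. Quantile normalisation within each fraction gave 27 rises in total RNA averaged over both genotypes, 10 in WT and 6 in Het cells (backgrounds 16.6%, 8.44% and 6.46%). It gave 2 and 4 polysomal rises in WT and Het cells (0.728% and 1.05%) and 1 TE rise in Het cells (0.566%). Median centring gave 1 fall in total RNA averaged over both genotypes (background 16.5%) and 1 total RNA rise in Het cells (4.45%). Array weights gave 1 fall in total RNA, 5 polysomal rises in WT and 16 in Het cells, 1 polysomal fall in Het cells, and 14 TE rises averaged over both genotypes, 3 in WT and 1 in Het cells. With no filter on low values, total RNA had 1 rise in Het cells (background 4.22%), and the median TE percentile of transformed cells was 76.7. The filter at the 60th percentile gave 1 polysomal rise in Het cells (background 0.732%), and the trend and robust setting 1 polysomal and 1 total RNA rise there. Without the 2 polysomal arrays of smallest SD, 11 polysomal rises and 1 TE rise were left averaged over both genotypes, and Het cells had 19 polysomal rises and 1 fall, and 9 TE rises and 1 fall. With only the groups compared in the fit, total RNA had 1 rise in WT and 1 in Het cells, and Het cells had 19 polysomal rises and 1 fall, and 9 TE rises and 1 fall. With no replicate block, rises averaged over both genotypes were 23 in total RNA, 25 in polysomal RNA and 9 in TE. Without this pairing they were 10 in WT and 6 in Het cells in total RNA, and 4 and 7 in polysomal RNA. With the embryo number as a replicate block across genotypes, although equal numbers are different embryos, 0 genotype calls appeared in each fraction and state, and equal-numbered deviations correlated at -0.33 to 0.48.

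Leaving out each embryo in turn gave these ranges, while the share of all genes called also moved, as given above for the averaged fits. Averaged over both genotypes, rises were 8 to 13 and falls 0 to 1 in total RNA, and rises were 1 to 34 in polysomal RNA and 0 to 23 in TE. In WT cells, rises were 0 to 4 and falls 0 to 1 in total RNA, and rises were 0 to 16 in polysomal RNA and 0 to 7 in TE. In Het cells, rises were 0 to 1 in total RNA, rises were 0 to 13 and falls 0 to 1 in polysomal RNA, and rises were 0 to 4 and falls 0 to 1 in TE. Uncalled total RNA changes near 0 turned sign in some fits. With quantile normalisation Cox6a1 was at 0.0904 and Cox7a1 at -0.0051, with median centring Cox6b1 was at -0.0061 and Cox7a1 at -0.0041, and with array weights Cox6b1 was at -0.0064 and Cox8a at -0.0078. With an embryo left out, changes ranged from -0.150 to 0.0238 for Uqcrq, -0.0327 to 0.0112 for Cox4i2, -0.00944 to 0.0600 for Cox6a2, -0.0139 to 0.0295 for Cox6b1, -0.00720 to 0.0285 for Cox7a1 and -0.0177 to 0.0602 for Cox8a. The Uqcr10 genotype difference in TE of transformed cells ranged from -0.469 to 0.0633, with the positive value when Het 2 was left out.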
